A study of Homo sapiens with 10 samples.

Results

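The genes described here are those in which the make-up of transcripts differed most between 7 human ovarian cancer cell lines. A gene was taken when its gene identifier held 2 or more transcripts, had at least 100 summed counts in each of the 8 PromethION libraries, and had a transcript whose share of the gene's counts spanned 30 percentage points or more between the highest and the lowest line. Of 57110 gene identifiers, 16449 held 2 or more transcripts and 1300 of these also had the counts. Families of ribosomal, respiratory chain, translation factor, proteasome, hnRNP, SR and heat shock genes were left out by the start of their names, which removed 208. Of the 1092 identifiers that could have passed, 97 did (8.88%). The shares themselves chose these genes, so their spans between lines are given as a description, without a test.

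RNA was read as long nanopore reads, in 10 libraries made from total RNA of established cell lines. The labels give the line and the instrument, and no treatment or genotype. COV362, COV504, OVKATE, OVMANA, OVTOKO and SK-OV-3 had 1 PromethION library each, and IGROV-1 had 2 PromethION and 2 MinION libraries (the MinION is the smaller of the instruments). The libraries were deposited to benchmark a package for transcript quantification. The labels do not say whether the IGROV-1 replicates came from separate cultures, so p-values measure only the spread between these libraries, whether biological or technical, and a line with 1 library has no spread of its own.

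One gene can give several transcripts by starting at different promoters, by joining different exons, or by ending at different polyadenylation sites. A skipped exon whose length is a multiple of 3 leaves the reading frame intact and adds or removes a short stretch of protein, while a change confined to the untranslated ends leaves the protein as it is. RNA-binding proteins such as ESRP1 and ESRP2, which are made in epithelial cells, and QKI, RBFOX2 and MBNL1 are known to set the choice of exons in many genes. In the text below, the leading transcript of a gene is the one with the largest span, and its counterpart is the transcript of the same identifier that moved most in the opposite direction between those 2 lines. IGROV-1 enters a span as the mean of its 2 PromethION libraries.

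Library totals ran from 1729782 counts (OVTOKO) to 3666224 (IGROV-1 MinION replicate 1). The Müllerian lineage factor PAX8 was present in all 10 libraries at 84.1 to 340 CPM (the gene's count scaled by the library total). Of the other 6 genes on a list of ovarian epithelial markers, EPCAM, KRT7, MUC16 and WT1 lay at 1.54 CPM or less in the 4 IGROV-1 libraries and KRT8 at 5.15 to 11.4. Low levels of WT1 and MUC16 were not particular to IGROV-1. WT1 lay at 0.392 CPM or less in every line but OVKATE, and MUC16 at 0 in OVTOKO and SK-OV-3. EPCAM, KRT7 and KRT8 were lower in IGROV-1 than in every other line. The next lowest line was OVTOKO, with EPCAM at 8.67 CPM, KRT7 at 14.5 and KRT8 at 134. KRT18, a keratin, lay at 263 and 1041 CPM in the IGROV-1 PromethION replicates and at 244 and 1079.5 in the MinION replicates of the same numbers, so its difference between replicates was present on both instruments. The leukocyte genes PTPRC and CD3E lay at 0.445 CPM or less in all libraries. Of the fibroblast genes, COL1A1 reached 219 CPM in SK-OV-3, while DCN and PDGFRB lay at 0.86 or less. Of the endothelial genes, CDH5 reached 24.9 CPM in COV504 and PECAM1 10.6 in SK-OV-3, while VWF lay at 0.546 or less. Over 970 leading shares (97 members in 10 libraries) the 95% Wilson interval reached a median of 4.75 points and at most 9.57 points to either side. Such intervals, and the 95% Newcombe intervals given for spans below, cover counting error only, and the 2 IGROV-1 replicates are pooled in them.

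SPINT2, a membrane-bound inhibitor of serine proteases, heads the list with a span of 70.5 points, but this span is not one between SPINT2 isoforms. The deposited annotation joins SPINT2, AC011479.1 and C19orf33, neighbours on chromosome 19, under a single identifier. The leading transcript SPINT2-201 held 71.2% in COV504, 63.2% in OVKATE, 57.5% in SK-OV-3, 55.2% in OVMANA, 44.8% in OVTOKO, 36.5% in COV362 and 0.219% and 1.10% in the IGROV-1 PromethION replicates. Its counterpart, C19orf33-201, held 78.7% and 81.4% in the IGROV-1 PromethION replicates, 51.1% in COV362, 41.6% in OVTOKO, 34.4% in OVMANA, 32.3% in SK-OV-3, 26.7% in OVKATE and 22.3% in COV504. After the transcripts were sorted by their gene in GENCODE 29, SPINT2 lay at 1313 CPM in OVMANA, 533 in OVKATE, 217 in OVTOKO, 412 in SK-OV-3, 350 in COV362 and 552 in COV504, and at 0.427 and 1.72 CPM in the PromethION replicates of IGROV-1. C19orf33 lay between 189 CPM (COV504) and 944 CPM (OVMANA) in the other lines and at 64.2 and 64.98 CPM in those replicates. The low share of SPINT2-201 in IGROV-1 is thus a level of SPINT2 near 0 beside a neighbour that was still counted. Within C19orf33, which alone of the genes reached 100 counts in each PromethION library, the largest span between transcripts was 10.5 points.

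In all, 12 of the 97 members were such joined identifiers, and in 10 of them the leading transcript and its counterpart belonged to different genes. In the identifier that joins ECH1, AC008982.1 and HNRNPL, for example, ECH1-201 held 76.02% in OVTOKO, 74.9% in OVMANA, 61.4% in OVKATE, 53.2% in COV504, 49.4% in COV362, 48.03% in SK-OV-3 and 32.8% and 33.3% in the IGROV-1 PromethION replicates, against 67.1% and 66.7% for HNRNPL-201 in IGROV-1. Sorted by gene, S100A13 (52.7 points), DDX39B (44.4 points), ZNF207 (36.3 points) and EEF1E1 (35.2 points, in the identifier that also holds TXNDC5) each spanned 30 points or more on their own counts. S100A13, a small calcium-binding protein, differed at its start: S100A13-203 held 60.03% in OVTOKO, 58.2% in COV504, 46.7% in OVMANA, 45.4% in COV362, 44.5% in SK-OV-3, 33.8% in OVKATE and 7.63% and 7.07% in the IGROV-1 PromethION replicates, and S100A13-204, which starts 971 bases away and codes for the same protein, made up most of the rest. In 4 other joined identifiers the genes that could be read on their own counts spanned less than 30 points, and in the remaining 4 no gene had the counts to be read alone. The 85 members whose identifier holds a single gene name are described next. In one of them, ALDOA, which codes for the glycolytic enzyme aldolase A, the counterpart of ALDOA-209 belongs to AC093512.2, an overlapping gene of GENCODE.

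**Figure D1:**
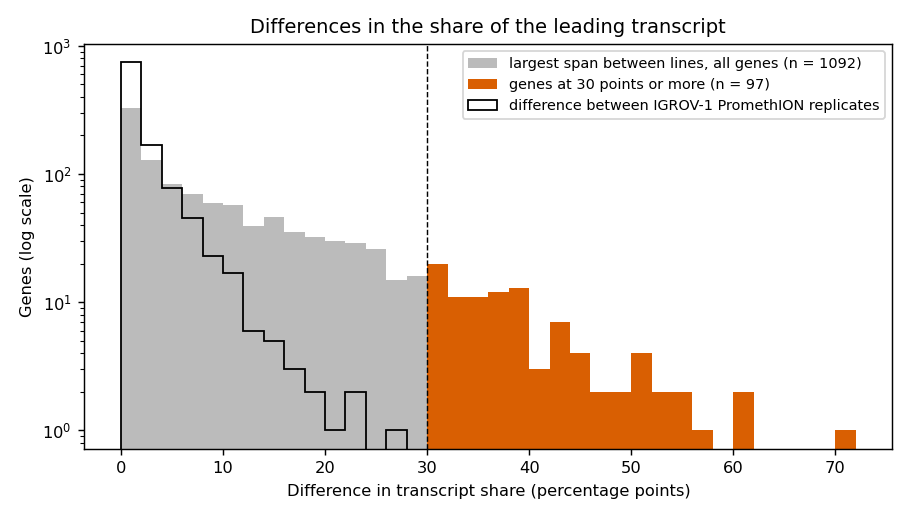
Number of genes (log scale) by the difference in share of the leading transcript, in percentage points, for all 1092 genes (grey) and the 97 at 30 points or more (orange). The black outline gives the difference between the IGROV-1 PromethION replicates for the same transcripts, which stayed under 30 points in every gene.

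Across the 97 members the span had a median of 37.1 points, against 6.23 points over all 1092 genes. The same transcripts differed between the 2 IGROV-1 PromethION replicates by a median of 3.72 points (0.986 over all genes), and between the MinION replicates by a median of 2.84 points. In no member did either replicate pair differ by 30 points. In 10 members the PromethION pair differed by 10 points or more, most of all in MYOF (23.9 points) and CAST (22.5 points). The transcript with the most counts was a different one in different lines in 68 members (70.1%, against 11.6% over all genes). The rule itself favours such genes, since it takes those whose shares move most between lines.

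**Figure D2:**
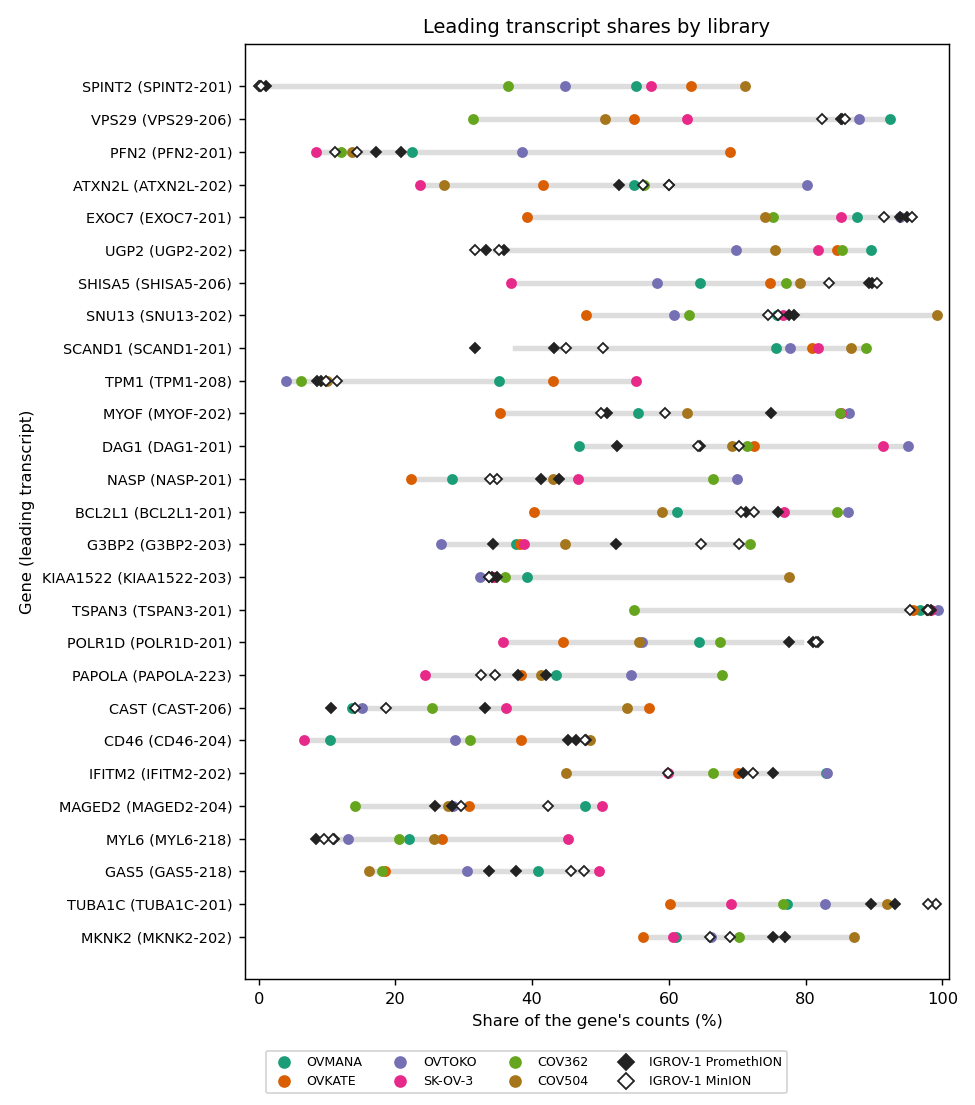
Share of a gene's counts held by its leading transcript (%), for 27 members, in the 6 lines with 1 library (circles) and in IGROV-1 on the PromethION (filled diamonds) and MinION (open diamonds); grey bars join the lowest and highest line. In TSPAN3 and KIAA1522 a single line lies away from all others, while VPS29, NASP and CD46 are spread out.

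Among genes of membrane traffic, VPS29 and EXOC7 had the largest spans. VPS29 is a subunit of the retromer, which returns cargo from endosomes. VPS29-206 (chr12:110491097-110502117, minus strand) held 92.4% in OVMANA, 87.8% in OVTOKO, 85.4% and 85.2% in the IGROV-1 PromethION replicates, 62.7% in SK-OV-3, 54.9% in OVKATE, 50.6% in COV504 and 31.4% in COV362, a span of 60.97 points (95% interval 55.6 to 65.7). OVMANA, OVTOKO and IGROV-1 were high, COV362 was low, and the other lines lay between. Nearly all remaining counts belonged to VPS29-201, which carries a coding exon of only 12 bases near the start of the protein. That exon is shown with the 12 bases of spliced transcript on either side; here and in the sequences further down, capitals mark the exon and lower case the neighbouring exons, read 5′ to 3′ from GENCODE 29 transcripts on GRCh38.
VPS29 exon 2 of 5 (chr12:110499535-110499546, minus strand): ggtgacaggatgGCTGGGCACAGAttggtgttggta
Counts from all transcripts with this exon, as a share of all that span it, came to 67.5% in COV362, 48.6% in COV504, 44.4% in OVKATE, 36.04% in SK-OV-3, 14.5% and 13.2% in the IGROV-1 PromethION replicates, 11.6% in OVTOKO and 7.01% in OVMANA. The MinION libraries of IGROV-1 gave 12.96% and 16.4%. The order of the lines was thus the same whether 1 pair of transcripts or the exon was read.

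EXOC7 codes for the exocyst subunit Exo70, which tethers secretory vesicles to the plasma membrane, and is a textbook case of splicing that differs between epithelial and mesenchymal cells. Its leading transcript, EXOC7-201 (chr17:76081017-76103695, minus strand), lacks a 93-base exon that EXOC7-216 holds.
EXOC7 exon 7 of 19 (chr17:76091143-76091235, minus strand): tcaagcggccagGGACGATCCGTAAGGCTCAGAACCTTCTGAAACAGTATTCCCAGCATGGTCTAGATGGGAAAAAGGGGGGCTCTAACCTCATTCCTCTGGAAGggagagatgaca
Transcripts with this exon gave 58.3% in OVKATE, 23.5% in COV362, 21.7% in COV504, 13.6% in SK-OV-3, 6.09% in OVMANA, 4.29% in OVTOKO and 3.61% and 2.68% in the IGROV-1 PromethION replicates. OVKATE alone was above 50%, COV362, COV504 and SK-OV-3 lay between 13.6% and 23.5%, and the remaining lines were under 7%. On the MinION, IGROV-1 gave 2.67% and 2.01%. The span of EXOC7-201 was 55.1 points (95% interval 47.2 to 62.7), and it was counted from as few as 114 counts in a library. Other members of these routes had smaller spans: SNX5, a sorting nexin, 39.98 points; GOLGA4, a Golgi tethering protein, 34.97 points; YIF1A, which acts between the endoplasmic reticulum and the Golgi, 31.9 points; and AP3D1, a subunit of the AP-3 adaptor, 34.3 points.

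Among genes of the actin cytoskeleton, PFN2 had the largest span. Profilin-2 binds actin monomers and exists in forms that differ at the end of the protein. PFN2-201 (chr3:149964904-149971109, minus strand) held 68.9% in OVKATE, 38.5% in OVTOKO, 22.5% in OVMANA, 20.8% and 17.1% in the IGROV-1 PromethION replicates, 13.6% in COV504, 12.01% in COV362 and 8.41% in SK-OV-3, a span of 60.5 points (95% interval 56.3 to 64.4). OVKATE was high by a gap of more than 30 points to the next line, OVTOKO. PFN2-203 held the rest in each library (31.1% in OVKATE, 91.6% in SK-OV-3); both transcripts end at the same base, use different splice sites and code for proteins of equal length. The level of PFN2 itself differed 15.0-fold between its highest line, COV504, and its lowest, IGROV-1.

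TPM1 codes for tropomyosin, which lies along actin filaments and is made from several promoters. The short TPM1-208 (chr15:63048467-63071884, plus strand) held 55.3% in SK-OV-3, 42.99% in OVKATE, 35.2% in OVMANA, 9.96% in COV504, 9.19% and 8.47% in the IGROV-1 PromethION replicates, 6.25% in COV362 and 3.96% in OVTOKO, so that SK-OV-3, OVKATE and OVMANA were apart from the other 4 lines, which were at 9.96% or less. Its counterpart TPM1-206, which starts 5786 bases upstream, held 59.2% in COV504, 50.4% and 50.3% in the IGROV-1 PromethION replicates, 45.7% in COV362, 43.95% in OVTOKO, 34.95% in OVMANA, 28.5% in OVKATE and 13.4% in SK-OV-3. The span of TPM1-208, between SK-OV-3 (422 gene counts) and OVTOKO (437), was 51.3 points. The IGROV-1 PromethION replicates, with 2867 and 4230 summed counts, differed by 0.715 points. That difference does not measure the spread of lines with 1 library.

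FLNA codes for filamin A, which crosslinks actin filaments. FLNA-203 holds a 24-base exon that FLNA-201 lacks. This gene, like the others named for an exon below that are not in the plot of leading shares, was chosen after its values were seen.
FLNA exon 29 of 47 (chrX:154357251-154357274, minus strand): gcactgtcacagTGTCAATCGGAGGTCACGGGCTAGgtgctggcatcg
Inclusion of the exon was 68.5% in COV362, 68.4% in SK-OV-3, 66.8% in COV504, 65.9% in OVKATE, 50.2% in OVMANA, 47.2% and 48.1% in the IGROV-1 PromethION replicates and 25.7% in OVTOKO. OVTOKO was low, and 4 lines lay within 3 points of each other at the top. MYL6, the essential light chain of non-muscle and smooth muscle myosin, is the deepest member, with 2614 counts or more in each library. MYL6-218 held 45.3% in SK-OV-3, 26.9% in OVKATE, 25.6% in COV504, 22.03% in OVMANA, 20.6% in COV362, 13.04% in OVTOKO and 8.36% and 10.997% in the IGROV-1 PromethION replicates, and counts with its 45-base exon 6 came to 54.1% in SK-OV-3, 34.6% in COV504, 34.1% in OVKATE, 30.6% in COV362, 29.8% in OVMANA, 20.6% in OVTOKO and 15.98% and 19.8% in the IGROV-1 PromethION replicates. SK-OV-3 was high and IGROV-1 low, also on the MinION (13.2% and 16.1%). CALD1, for caldesmon, which binds actin and myosin, spanned 39.1 points between OVTOKO and COV504.

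**Figure D3:**
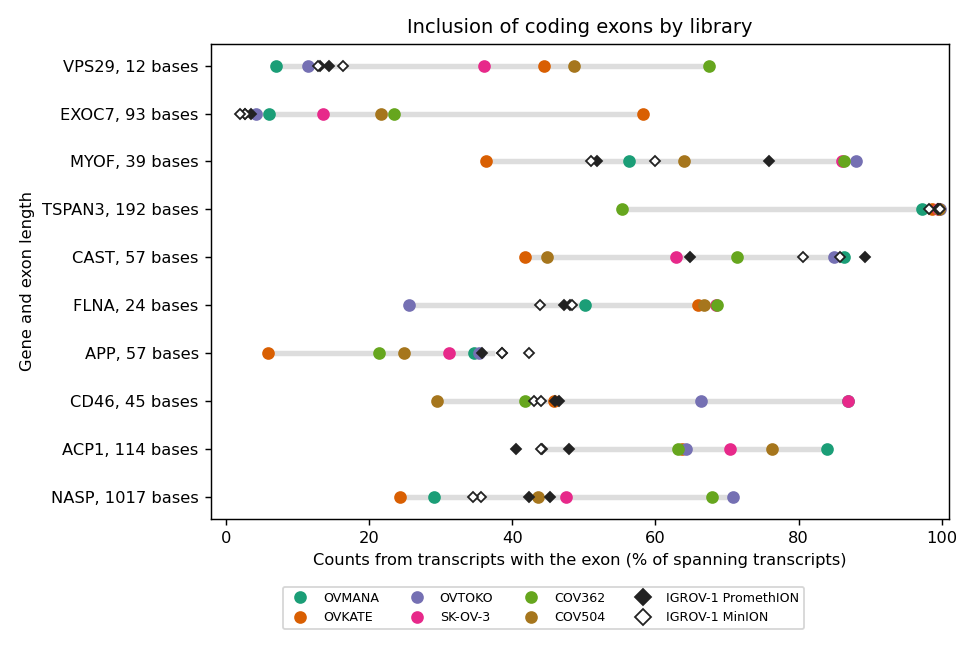
Counts from transcripts with a coding exon, as a percentage of the counts of all transcripts that span it, in each library, for 10 members; grey bars join the lowest and highest line. The 12-base exon of VPS29 runs from 7.01% to 67.5%, and the 192-base exon of TSPAN3 is near complete except in COV362, at 55.3%.

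Several members code for proteins of the cell surface. CD46 protects cells from complement and is known for alternative exons of its serine, threonine and proline rich stalk. CD46-203 holds a 45-base exon that CD46-204 lacks; both start and end at the same bases (chr1:207752057-207795513, plus strand).
CD46 exon 7 of 12 (chr1:207767779-207767823, plus strand): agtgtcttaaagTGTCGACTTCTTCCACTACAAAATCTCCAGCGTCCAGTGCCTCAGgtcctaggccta
The leading transcript CD46-204 held 48.4% in COV504, 45.2% and 46.4% in the IGROV-1 PromethION replicates, 38.3% in OVKATE, 30.98% in COV362, 28.8% in OVTOKO, 10.5% in OVMANA and 6.61% in SK-OV-3, a span of 41.8 points (95% interval 36.8 to 46.4). Summed over all 10 spanning transcripts, inclusion of the exon was 86.9% in SK-OV-3, 86.9% in OVMANA, 66.4% in OVTOKO, 46.5% and 45.9% in the IGROV-1 PromethION replicates, 45.9% in OVKATE, 41.8% in COV362 and 29.4% in COV504, which is a wider spread, 57.5 points, than that of any single CD46 transcript. OVMANA and SK-OV-3 included it in most counts, and COV504 in the fewest. On the MinION, IGROV-1 gave 43.1% and 44.1%.

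MYOF codes for myoferlin, a membrane protein of the ferlin family involved in fusion and repair. MYOF-202 and MYOF-201 differ only by an exon of 39 bases.
MYOF exon 17 of 54 (chr10:93392917-93392955, minus strand): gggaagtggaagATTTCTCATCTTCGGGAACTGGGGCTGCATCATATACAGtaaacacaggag
Inclusion was 88.02% in OVTOKO, 86.3% in COV362, 85.99% in SK-OV-3, 64.04% in COV504, 51.9% and 75.9% in the IGROV-1 PromethION replicates, 56.3% in OVMANA and 36.4% in OVKATE. OVTOKO, COV362 and SK-OV-3 were high and OVKATE was low. The IGROV-1 replicates were 23.9 points apart in the share of MYOF-202, and the MinION libraries gave 59.5% and 50.1%, so the IGROV-1 libraries lay on both sides of OVMANA and COV504.

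In TSPAN3, a tetraspanin, a single line stood apart. TSPAN3-201 held 99.4% in OVTOKO, 98.3% in SK-OV-3, 97.8% and 98.3% in the IGROV-1 PromethION replicates, 97.9% in COV504, 96.7% in OVMANA, 95.7% in OVKATE and 54.8% in COV362. Only COV362 was below 95%, and there TSPAN3-203, which lacks a 192-base exon and ends 4626 bases upstream, held 44.7%. In the other lines TSPAN3-203 did not exceed 2.79%.
TSPAN3 exon 2 of 7 (chr15:77056064-77056255, minus strand): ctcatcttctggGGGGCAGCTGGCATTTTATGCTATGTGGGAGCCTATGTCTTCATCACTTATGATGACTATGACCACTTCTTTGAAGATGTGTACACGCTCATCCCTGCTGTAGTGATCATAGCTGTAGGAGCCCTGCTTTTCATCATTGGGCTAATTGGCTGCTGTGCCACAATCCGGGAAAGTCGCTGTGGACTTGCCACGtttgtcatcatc

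APP, the amyloid precursor protein, is known for an optional 57-base exon, which APP-201 holds and APP-204 lacks.
APP exon 8 of 18 (chr21:25997360-25997416, minus strand): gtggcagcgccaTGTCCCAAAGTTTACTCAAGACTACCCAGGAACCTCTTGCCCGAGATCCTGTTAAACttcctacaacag
Inclusion was 35.8% and 38.6% in the IGROV-1 PromethION replicates, 35.3% in OVTOKO, 34.7% in OVMANA, 31.2% in SK-OV-3, 24.9% in COV504, 21.4% in COV362 and 5.90% in OVKATE, and 42.3% and 38.6% on the MinION. OVKATE was low and COV362 and COV504 came next. DAG1, for dystroglycan, differed at its start only: DAG1-201 held 94.95% in OVTOKO, 91.3% in SK-OV-3, 72.5% in OVKATE, 71.5% in COV362, 69.3% in COV504, 64.6% and 52.4% in the IGROV-1 PromethION replicates and 46.9% in OVMANA, and its counterpart DAG1-218, which starts 1429 bases upstream with the same coding sequence, held most in OVMANA (30.3%) and IGROV-1 (25.1% and 29.8%). LAMP2, a major protein of the lysosomal membrane known in forms with different tails, had LAMP2-202 at 57.2% in OVMANA, 54.6% in OVKATE, 50.5% in SK-OV-3, 45.01% in OVTOKO, 40.6% in COV362, 35.0001% in COV504 and 26.1% and 26.6% in the IGROV-1 PromethION replicates. IGROV-1 was low there, and LAMP2-201, whose last exon lies 5668 bases downstream, made up nearly all of the rest.

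UGP2, the pyrophosphorylase that makes UDP-glucose for glycogen and glycan synthesis, heads the enzymes. UGP2-202 (chr2:63840940-63891562, plus strand) held 89.6% in OVMANA, 85.4% in COV362, 84.6% in OVKATE, 81.8% in SK-OV-3, 75.5% in COV504, 69.8% in OVTOKO and 33.2% and 35.9% in the IGROV-1 PromethION replicates, and 35.1% and 31.7% in the MinION libraries. UGP2-201 starts 770 bases downstream, has a coding sequence of 1524 rather than 1491 bases, and held 65.9% and 62.8% in the IGROV-1 PromethION replicates, 29.7% in OVTOKO, 23.9% in COV504, 16.7% in SK-OV-3, 14.7% in OVKATE, 13.6% in COV362 and 9.56% in OVMANA. All 6 other lines were at 69.8% or more for UGP2-202 and all 4 IGROV-1 libraries at 35.9% or less. The rule chose UGP2 by these PromethION shares, and only the MinION libraries were not used by it. The span was 55.1 points (95% interval 47.6 to 60.1). IGROV-1 also had the highest UGP2 level, 2.72-fold above COV504.

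ACP1, a low molecular weight tyrosine phosphatase, is known for a pair of mutually exclusive exons, and the data show both, each of 114 bases.
ACP1-201 exon 3 of 6 (chr2:272037-272150, plus strand): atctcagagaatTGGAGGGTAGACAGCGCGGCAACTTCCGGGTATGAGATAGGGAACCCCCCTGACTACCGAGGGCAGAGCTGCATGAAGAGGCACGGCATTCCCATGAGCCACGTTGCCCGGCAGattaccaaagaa
ACP1-202 exon 3 of 6 (chr2:272192-272305, plus strand): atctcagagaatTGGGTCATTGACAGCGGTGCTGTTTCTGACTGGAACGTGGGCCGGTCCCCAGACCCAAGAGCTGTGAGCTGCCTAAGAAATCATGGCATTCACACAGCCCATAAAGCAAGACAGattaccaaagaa
ACP1-201 held 83.97% in OVMANA, 76.2% in COV504, 70.4% in SK-OV-3, 64.3% in OVTOKO, 63.8% in OVKATE, 63.1% in COV362 and 40.6% and 47.9% in the IGROV-1 PromethION replicates, and in each library ACP1-202 held nearly all remaining counts. IGROV-1 was low, on the MinION too (44.2% and 43.97%), and OVMANA was high. DUT, which removes dUTP, is known in nuclear and mitochondrial forms set by the first exon. DUT-202, with the shorter coding sequence (492 against 756 bases), held 85.2% and 79.2% in the IGROV-1 PromethION replicates, 71.2% in OVMANA, 69.7% in COV504, 68.8% in OVKATE, 67.5% in COV362, 58.4% in OVTOKO and 43.6% in SK-OV-3, lowest in SK-OV-3.

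Genes of RNA and chromatin made up another group. ATXN2L, a protein of stress granules, spanned 56.5 points (95% interval 47.1 to 64.3): ATXN2L-202 held 80.1% in OVTOKO, 60.004% and 52.8% in the IGROV-1 PromethION replicates, 56.3% in COV362, 54.96% in OVMANA, 41.6% in OVKATE, 27.1% in COV504 and 23.6% in SK-OV-3. The pair differed by a retained intron, and ATXN2L-203 moved the other way, from 6.94% in OVTOKO to 38.6% in COV504. NASP, a histone chaperone, is known as a long testis-type and a short somatic form. NASP-201 (chr1:45584060-45618894, plus strand), which includes a coding exon of 1017 bases, held 70.04% in OVTOKO, 66.5% in COV362, 46.8% in SK-OV-3, 43.1% in COV504, 43.97% and 41.2% in the IGROV-1 PromethION replicates, 28.3% in OVMANA and 22.4% in OVKATE; NASP-202 lacks it and held 75.4% in OVKATE, 70.9% in OVMANA, 56.3% in COV504, 54.5% and 57.6% in the IGROV-1 PromethION replicates, 52.1% in SK-OV-3, 31.8% in COV362 and 29.1% in OVTOKO. OVTOKO and COV362 were high and OVKATE and OVMANA low.

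PAPOLA, a poly(A) polymerase, POLR1D, a subunit of RNA polymerases I and III, and SNU13, which binds snoRNAs and the U4 snRNA, differed in other ways. PAPOLA-223 held 67.8% in COV362, 54.5% in OVTOKO, 43.6% in OVMANA, 41.4% in COV504, 42.03% and 37.9% in the IGROV-1 PromethION replicates, 38.4% in OVKATE and 24.4% in SK-OV-3. POLR1D-201, which ends 43963 bases before its counterpart POLR1D-203, held 81.1% and 77.6% in the IGROV-1 PromethION replicates, 67.5% in COV362, 64.4% in OVMANA, 56.1% in OVTOKO, 55.7% in COV504, 44.6% in OVKATE and 35.8% in SK-OV-3. SNU13-202 held 99.2% in COV504, 77.6% and 78.2% in the IGROV-1 PromethION replicates, 76.7% in SK-OV-3, 75.9% in OVMANA, 63.01% in COV362, 60.8% in OVTOKO and 47.9% in OVKATE, and stood out in COV504, where its counterpart SNU13-203 held 0.247%, against 26.3% in OVKATE. The 2 SNU13 transcripts code for the same protein. Adding up SNU13 transcripts with the same introns took the span from 51.4 to 25.3 points, under the threshold. G3BP2, another stress granule protein, had G3BP2-203 at 71.9% in COV362, 44.7% in COV504, 52.2% and 34.2% in the IGROV-1 PromethION replicates, 38.8% in SK-OV-3, 38.2% in OVKATE, 37.6% in OVMANA and 26.7% in OVTOKO. Its replicates were 17.98 points apart and the MinION libraries gave 64.7% and 70.3%, so the 4 IGROV-1 libraries covered most of the range between the lines. GAS5, a non-coding host gene of snoRNAs, had GAS5-218 at 49.8% in SK-OV-3, 40.8% in OVMANA, 37.7% and 33.7% in the IGROV-1 PromethION replicates, 30.5% in OVTOKO, 18.5% in OVKATE, 18.1% in COV362 and 16.2% in COV504. MRPL33, of the mitochondrial ribosome, differed by an exon of 107 bases, which is not a multiple of 3; MRPL33-202 lacks it and held 53.5% and 57.3% in the IGROV-1 PromethION replicates, 43.5% in SK-OV-3, 35.4% in COV504, 33.3% in OVMANA, 28.7% in OVKATE, 22.6% in COV362 and 20.6% in OVTOKO.

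Regulators of cell death and signalling were also among the members. BCL2L1 codes for the survival protein Bcl-xL, and both of its moving transcripts code for this same protein. BCL2L1-201 (chr20:31664452-31722898, minus strand) held 86.1% in OVTOKO, 84.6% in COV362, 76.8% in SK-OV-3, 71.2% and 75.9% in the IGROV-1 PromethION replicates, 61.2% in OVMANA, 58.996% in COV504 and 40.3% in OVKATE, and BCL2L1-203, which starts 301 bases downstream, held 49.8% in OVKATE, 32.6% in OVMANA, 29.1% in COV504, 22.8% and 15.9% in the IGROV-1 PromethION replicates, 10.8% in SK-OV-3, 7.17% in OVTOKO and 7.17% in COV362. OVKATE was the lowest line and OVTOKO and COV362 the highest. CAST codes for calpastatin, the inhibitor of calpain proteases, and CAST-201 holds a 57-base exon that CAST-206 lacks.
CAST exon 4 of 29 (chr5:96729153-96729209, plus strand): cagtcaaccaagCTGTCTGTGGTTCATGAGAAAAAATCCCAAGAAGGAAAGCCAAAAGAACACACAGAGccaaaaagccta
Inclusion was 86.2% in OVMANA, 84.9% in OVTOKO, 89.2% and 64.8% in the IGROV-1 PromethION replicates, 71.4% in COV362, 62.8% in SK-OV-3, 44.9% in COV504 and 41.8% in OVKATE. OVKATE and COV504 were low, and the IGROV-1 replicates differed by 22.5 points in the share of CAST-206. SHISA5, a p53-induced protein of the endoplasmic reticulum, had SHISA5-206 at 89.3% and 89.7% in the IGROV-1 PromethION replicates, 79.1% in COV504, 77.2% in COV362, 74.8% in OVKATE, 64.6% in OVMANA, 58.2% in OVTOKO and 36.97% in SK-OV-3; it starts 31223 bases downstream of SHISA5-201 and has a shorter coding sequence (411 against 720 bases). MKNK2, a kinase of the translation factor eIF4E known in forms with different ends, had MKNK2-202 at 87.1% in COV504, 75.3% and 77.1% in the IGROV-1 PromethION replicates, 70.2% in COV362, 66.1% in OVTOKO, 60.98% in OVMANA, 60.7% in SK-OV-3 and 56.2% in OVKATE, highest in COV504.

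In 2 further named members 1 line stood apart. SCAND1-201, of a SCAN domain gene, held 88.8% in COV362, 86.6% in COV504, 81.9% in SK-OV-3, 80.9% in OVKATE, 77.8% in OVTOKO, 75.7% in OVMANA and 31.6% and 43.2% in the IGROV-1 PromethION replicates, with IGROV-1 below all other lines; SCAND1-202 codes for the same protein. KIAA1522-203 held 77.5% in COV504, 39.3% in OVMANA, 36.04% in COV362, 34.1% and 34.9% in the IGROV-1 PromethION replicates, 34.5% in SK-OV-3, 34.3% in OVKATE and 32.4% in OVTOKO, so that COV504 was apart from all other libraries. KIAA1522-202 was at 9.51% in COV504 and between 29.4% and 33.6% elsewhere. IFITM2, an antiviral membrane protein, had IFITM2-202 at 83.2% in OVTOKO, 82.9% in OVMANA, 75.2% and 70.8% in the IGROV-1 PromethION replicates, 70.1% in OVKATE, 66.5% in COV362, 59.8% in SK-OV-3 and 44.9% in COV504, with no line far from the next; IFITM2-205 has the same introns and starts only 54 bases downstream, so the 2 were told apart by where the reads began.

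The remaining 69 members spanned 30.4 to 52.7 points with a median of 35.0, and 58 of them were single genes, at up to 43.3 points. The smallest spans above the threshold were those of MAPK1IP1L (30.4 points) and of the joined ARL2 identifier (30.4 points). PPIG and UBA1, each at 29.9 points, were the nearest genes below it. Of a list of 50 genes known for alternative isoforms, 23 could have passed the rule and 9 did: the joined SPINT2 identifier, UGP2, EXOC7, TPM1, BCL2L1, CAST, CD46, MYL6 and MKNK2. The list was drawn up with results of these data known, so the count is no independent support.

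The rule did not use the structure of the transcripts. In 86 members the leading transcript and its counterpart belonged to the same gene. Their starts lay more than 100 bases apart in 45 (52.3%, against 49.3% over all genes that could have passed), and their ends in 31 (36.0% against 45.7%). An exon was skipped by one of the pair in 31 (36.0% against 36.4%), a splice site differed in 11 (12.8% against 22.2%), and an intron was retained in 11 (12.8% against 9.79%). These shares were not tested against each other. Skipped exons within the coding sequence numbered 29 in 24 members, of 12 to 1017 bases with a median of 93, and 28 of them (96.6%) had a length that is a multiple of 3. Among genes with both transcripts at 10% or more in a library that were not members, this held for 83 of 143 coding exons (58.0%). The exon of MRPL33 was the exception. These are counts of annotated exons in pairs chosen by the share, given without a test.

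In 23 of the 86 pairs both transcripts coded for the same protein (26.7% against 23.0%), and in 61 the coding sequences differed; GAS5 and SNHG8 are non-coding. When transcripts of a gene with the same coding sequence were added up before shares were taken, 62 of the 85 single-gene members still spanned 30 points or more. Of the rest, 6 spanned 10 to under 30 points, 12 spanned less than 10, and 5 had a single coding product (SCAND1, DAG1, ZFAND5, PLD3 and MAPK1IP1L). BCL2L1 went from 45.8 to 6.29 points, G3BP2 from 45.2 to 13.7 and SNU13 from 51.4 to 25.3. Catenin beta-1, CTNNB1, which links cadherins to actin and carries Wnt signals, was among the 12, since CTNNB1-202 and CTNNB1-203 differ only outside the coding sequence. In UGP2, VPS29, PFN2, EXOC7, SHISA5 and TPM1 the span stayed at 51.3 points or more.

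**Figure D4:**
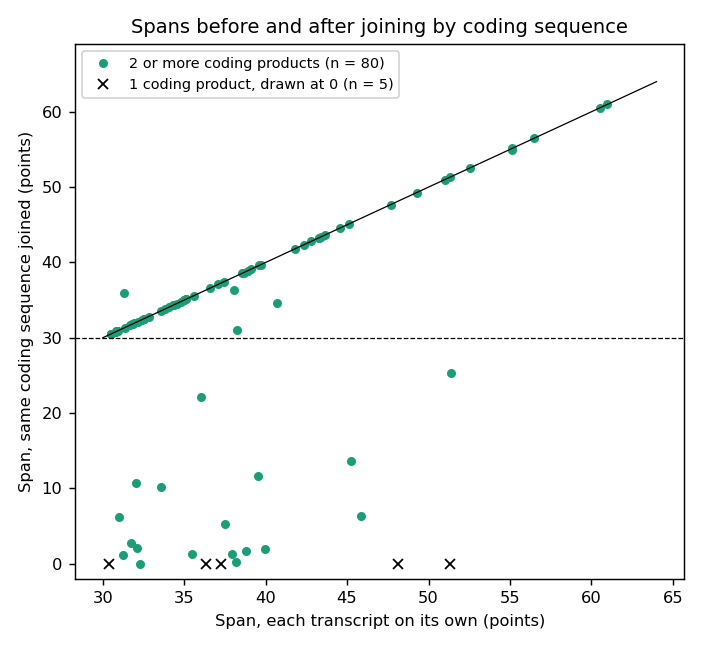
Span between lines (percentage points) of the leading transcript of the 85 single-gene members, horizontally with each transcript on its own and vertically with transcripts of the same coding sequence added up; crosses at 0 are genes with 1 coding product. Points on the diagonal keep their span, and 23 genes fall below the dashed line at 30 points.

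No line dominated the list. The highest or lowest share belonged to OVTOKO in 31 members, to OVKATE and IGROV-1 in 28 each, to OVMANA, SK-OV-3 and COV504 in 27 each and to COV362 in 26. One line was separated from all others by at least 50% of the span in 29 members (29.9%, against 24.6% over all genes). That line was OVKATE in 7 (among them PFN2, EXOC7, APP and YIF1A), IGROV-1 in 6 (among them UGP2, SCAND1 and PTP4A2), and OVTOKO (FLNA, MTCH1), COV362 (TSPAN3, HDLBP) and COV504 (KIAA1522, AHNAK) in 4 each. OVMANA stood apart in 3 (SCOC, AP3D1, SET) and SK-OV-3 in MYL6 only. These counts use the PromethION libraries alone, and the MinION libraries of IGROV-1 narrowed the gap in some genes, such as TAX1BP1, G3BP2, GOLGB1 and SET. TAX1BP1-202 held 56.1% and 49.8% in IGROV-1 on the PromethION but 30.6% and 36.9% on the MinION, around the 31.8% of SK-OV-3. G3BP2, counted for COV362 at 71.9%, reached 64.7% and 70.3% in the MinION libraries. In gene level, 24 members (24.7%) had a ratio of 4 or more between highest and lowest line, against 19.6% of all 1092 genes, and the median ratio was 2.69 against 2.72.

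The MinION libraries of IGROV-1 were not used by the rule and give the same line on another instrument. They may not be independent of the PromethION libraries. The difference between replicates on the PromethION correlated with that on the MinION at 0.747 over the levels of 1092 genes. Over the shares of the 97 members the correlation was -0.0821. Both rest on only the replicate pair of each instrument. The labels do not say whether both instruments read the same RNA, and this was not tested. The mean MinION share of the leading transcript differed from the mean PromethION share by a median of 4.42 points, by 10 points or more in 18 members (18.6%, against 5.77% over all genes) and by 24.3 points at most, in G3BP2. In all members this difference stayed under the span, which the rule sets at 30 points or more. The rule does not bound the difference itself. Over all 1092 genes it reached 30 points or more in 4, with 44.6 points at most, and was larger than the span in 87. IGROV-1 was the highest line in 13 members and the lowest in 15, and in 22 of these 28 (78.6%) its MinION mean also lay beyond all 6 other lines on the same side. Over all genes this held for 156 of 293 (53.2%). The median span over all 1092 genes was only 6.23 points, and a small shift between instruments can change the extreme line there. Members span 30 points or more, so a higher rate in them could come from the rule alone. The rates were not tested against each other. Among the members in which the MinION mean did not lie beyond all other lines were EXOC7, ELOVL1, ZFAND5 and ATRX. In EXOC7 the MinION mean of 93.5% fell just under OVTOKO.

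**Figure D5:**
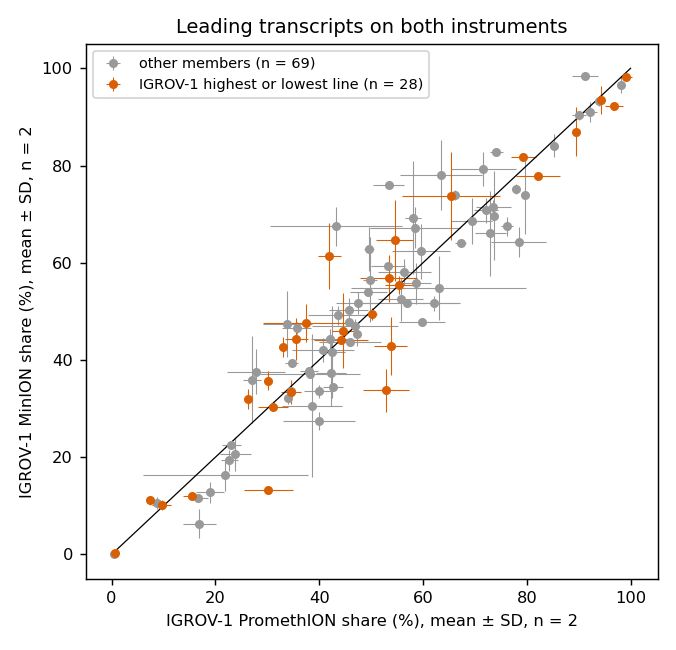
Share of the leading transcript (%) in IGROV-1 on the PromethION (horizontal) and the MinION (vertical), mean ± SD of 2 libraries each, for the 97 members; the line marks equal shares. Members in which IGROV-1 was the highest or lowest line are orange, and the point farthest from the line is G3BP2, 24.3 points above it.

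Transcript usage between the instruments was tested within IGROV-1, over its 4 libraries, by applying edgeR's test of exon usage to transcripts, with a Simes p-value for each gene, adjusted over all genes after Benjamini and Hochberg. It called 176 of 2979 genes (5.91%), and 10 of the 94 members tested (10.6%); of all tested genes that could have passed the rule, 65 of 691 (9.41%) were called, so the members' share was near that of genes of like depth. MAGED2, IFITM2, TUBA1C and GAS5 were among the 5 members with the smallest p-values. MAGED2-205, of a melanoma antigen family gene, held 23.1% and 29.5% on the PromethION and 0.361% and 2.28% on the MinION (edgeR adjusted p = 0.000121, 6.25e-07 to 0.0184 over the alternatives). Every alternative kept the call of MAGED2.

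IFITM2-205 held 21.4% and 25.4% on the PromethION and 15.2% and 11.7% on the MinION (edgeR adjusted p = 0.000579, 2.23e-05 to 0.0217 over the alternatives). TUBA1C-201, of an alpha-tubulin gene, held 93.04% and 89.5% on the PromethION and 99.04% and 97.97% on the MinION (edgeR adjusted p = 0.00387, 0.000579 to 0.0898), and lost its call without PromethION replicate 2 (0.0894) or without MinION replicate 1 (0.0898). GAS5-218 held 37.7% and 33.7% on the PromethION and 45.7% and 47.5% on the MinION (edgeR adjusted p = 0.0152, 0.00140 to 0.175), and leaving out any single library ended that call. In each of these the 2 instruments did not overlap in the share printed, but for IFITM2 and MAGED2 the printed transcript is the counterpart, chosen after its values were seen. The leading transcript IFITM2-202 held 75.2% and 70.8% on the PromethION and 59.8% and 72.3% on the MinION, which overlap. The leading transcript MAGED2-204 held 25.8% and 28.3% on the PromethION and 29.6% and 42.3% on the MinION. The labels give no culture for the replicates, so instrument and any difference in handling cannot be told apart. MYL6, ASPH, AKR1A1 and APP were among the other members called. Without any one library 3 to 5 members were called (3.16% to 5.32% of those tested), against 2.80% to 4.27% of the tested genes that could have passed the rule and 1.09% to 1.85% of all genes.

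The levels of genes that regulate splicing were compared because the rule did not choose them. Of 44 listed regulators 42 had an identifier of their own, and 36 of these were tested in the 6 comparisons of a line with IGROV-1, all of which share the IGROV-1 libraries. By the quasi-likelihood test of edgeR, at p-values adjusted after Benjamini and Hochberg, 111 of 216 pairs of regulator and line were called (51.4%), 47 higher and 64 lower than in IGROV-1, against 41.1% of all pairs of gene and line. Each lone library is assumed there to vary like the IGROV-1 replicates. DESeq2 called far fewer, 29 of the 201 pairs it tested, and the share over all pairs of gene and line was not taken for it.

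ESRP1 lay at 87.1 CPM in OVMANA, 84.1 in OVKATE, 24.9 in COV504 and 5.09 in COV362, and no count was assigned to it in OVTOKO, SK-OV-3 or any of the 4 IGROV-1 libraries. The level in OVMANA was at least 50.2-fold higher than 3 counts in the OVTOKO library would give, and ESRP1 was called higher than in IGROV-1 in 4 of 6 lines (edgeR adjusted p = 4.24e-05 in OVMANA, 2.57e-33 to 0.0139 over the alternatives). ESRP2 lay at 25.7 CPM in OVKATE and 25.1 in OVMANA, at 2.03 to 6.67 in SK-OV-3, COV362 and COV504, at 1.28 and 2.58 in the IGROV-1 PromethION replicates, and at 0 in OVTOKO. The 93-base exon of EXOC7, a gene known as a target of the ESRP proteins, was included at 58.3% in OVKATE and at 6.09% in OVMANA. CELF2 lay at 53.9 CPM in OVKATE and at 0 in OVMANA, OVTOKO and SK-OV-3. KHDRBS3 lay at 32.1 to 43.5 CPM in OVKATE, SK-OV-3, COV362 and COV504, and at 1.60 CPM or less in the other lines. MBNL2 ranged from 4.27 CPM in OVMANA to 96.9 in OVKATE (22.7-fold), and RBM47 from 6.66 in COV362 to 102.06 in OVMANA (15.3-fold). Whether any of these levels bears on the shares above was not tested.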

How the data were processed

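For each of the 10 libraries the authors deposited estimated counts of 99493 transcripts, under 57110 gene identifiers, 722 of which join several genes. Reads were aligned with minimap2 2.24-r1122 to GRCh38, per the submitters' processing notes; the quantification tool, its settings, the annotation release and the use of strand are not stated in the sources used here, so overlapping genes and near-identical copies are uncertain. Per the labels' protocols, column-purified total RNA was prepared with a ligation sequencing kit, with end repair lengthened to 30 min. Reads carry no molecular identifiers as far as the labels say, so amplified copies would not be told apart.

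Shares are a transcript's estimated count over the sum of its gene identifier, in percent, and CPM is the count scaled by the library total (1729782 to 3666224 counts). Structures and exon sequences come from GENCODE 29, in which 99363 transcripts were found. Single shares have 95% Wilson intervals and spans 95% Newcombe intervals. Estimated counts were rounded for count tests. Usage between instruments was tested with edgeR 4.0.16 (R 4.3.3), and gene levels with its quasi-likelihood test, TMM normalization and its default filter, two-sided, with Benjamini-Hochberg adjusted p under 0.05; DESeq2 1.42.0 was an alternative. On simulated counts with 200 genes changed 4-fold, the usage test recovered 73.5% of them and the level test 87.5%. Of the calls, 2% and 3.85% were false. The simulated libraries were independent and had the same fixed spread, so lone libraries that vary more were not covered. Alternatives were other count minimums and thresholds, other normalizations and filters, joined transcripts, a replicate block, and each library left out; joining transcripts by coding sequence and splitting joined identifiers by gene were chosen after seeing the data.

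The members and all gene lists were chosen with earlier results of these data known. Named genes were UGP2 and SPINT2, the 20 single-gene members with the largest span, the 5 members with the smallest p between instruments, members on the isoform list, the 2 genes on either side of the threshold, and ESRP1, ESRP2 and the 5 regulators with the widest range, taking 3 counts for a line with fewer. Other members given above, such as LAMP2, DUT, CALD1, SNX5, CTNNB1 and S100A13, fall outside these rules and were picked with their values known. RBM4, TARDBP and CD68 had no identifier of their own and were not used here. Some genes that these rules name are not reported here, but they stay in all counts over members. Replicates were treated as separate samples, since gene counts differed within the IGROV-1 pairs beyond sampling noise: chi-square divided by its degrees of freedom was 4.36 on the PromethION (9659 genes) and 6.73 on the MinION (10187 genes).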

Additional observations from a re-analysis of the deposited data

How the results depend on the processing

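The number of members followed the rule's own limits: 275 with a minimum of 50 counts, 27 with 200 counts, 213 at 20 points and 30 at 40 points, against 97. Leaving out a line gave 81 to 94, leaving out an IGROV-1 PromethION library 102 or 104, and taking IGROV-1 from the MinION 114. Adding up transcripts with the same introns left 95, adding up those with the same coding sequence 72, leaving out joined identifiers 85, and splitting them by gene 88, of which 85 were the same genes. Of 138 alternative spans of the named members, 128 stayed inside the 95% interval of the main value and 6 fell under 30 points. Many of them could not move, since these alternatives changed only IGROV-1 or joined transcripts. In genes such as VPS29 and PFN2 every alternative repeated the main value. Pairs of the leading transcript and its counterpart with starts over 500 bases apart numbered 24, against 45 at over 100 bases. In the usage test between instruments, a gene-level F test called 16 members (17.0%, against 16.1% of genes that could have passed the rule and 11.9% of all genes), in place of 10, and leaving out one library called 3 to 5 (3.16% to 5.32%, against 2.80% to 4.27% and 1.09% to 1.85%). The labels number the IGROV-1 replicates on both instruments. With the replicate number as a block 15 members were called (16.0%, against 11.6% and 7.62%). Differences between replicates correlated between the instruments at 0.747 over the levels of 1092 genes and at -0.0821 over the shares of the 97 members. Both rest on only the replicate pair of each instrument, and the labels do not say that a number marks a shared culture. For splicing regulators, DESeq2 called 29 of 201 pairs tested, against 111 of 216 in the main fit. The other alternatives called 92 to 110, of 216 tested or, without a filter, 234. The share over all pairs of gene and line was not taken for any alternative, so these counts show nothing particular to regulators. At 100 to 200 counts a gene's share carries a counting error of several points, so spans of members near the threshold could fall on either side of it.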
